A study of Rattus rattus with 8 samples.

Results

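Enteroendocrine cells are the scattered hormone-secreting cells of the gut epithelium. They sense nutrients and microbial products at the lumen and release peptides or serotonin at their base. Transcription factors such as Neurod1 and Insm1 act in the differentiation of this lineage, and granins such as Chga and Chgb pack the secretory granules of nearly all its subtypes. In the colon, L cells make proglucagon peptides (Gcg), peptide YY (Pyy) and insulin-like peptide 5 (Insl5), and enterochromaffin cells make serotonin, while cholecystokinin (Cck) is best known from the small intestine.

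The 10 genes described here are hormones (Cck, Pyy, Gcg, Insl5), granins and granule proteins (Chga, Chgb, Scg5) and fate factors (Neurod1, Insm1, Pax4), chosen by name and looked up by symbol among the 11762 rows of the deposited table. Of the 10, 7 had a row, each under 1 identifier. Insl5, Insm1 and Pax4 had none under these symbols and are not analysed here.

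Epithelium had been shaken off the proximal colon of rats of 2 inbred strains, WKY and SHR, and its RNA sequenced in 4 libraries of each. SHR is the spontaneously hypertensive rat, and WKY (Wistar-Kyoto) is the strain commonly kept as its normotensive control. The labels give no treatment, and the sources used here state neither age nor sex. Whether the libraries come from separate animals is not stated, and every p-value here measures only the spread among libraries, which may be technical. The labels write Rattus rattus, whereas the Ensembl identifiers in the table are those of the brown rat. Values are FPKM, a read count scaled to gene length and to library size, a unit inferred from the numbers because no header names it. They summed to 882295 (SHR replicate 3) to 1066833 (WKY replicate 4) per library, with 10708 to 11124 rows at 1 FPKM or more. The reads behind each value are unknown.

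Markers of the sample were those of epithelium. Epcam lay at 1555 to 1668 FPKM in WKY and 1520 to 1699 FPKM in SHR, and all 9 epithelial markers looked up had a row. Not all were level between the strains, since by the limma test described below 1 was lower in SHR and 1 higher. Krt18 averaged 154 FPKM in WKY and 108 in SHR (limma adjusted p = 0.0126). Cdx1 averaged 125 and 173 FPKM (limma adjusted p = 0.0312), a call that held in 3 of 8 fits without a library. Of 14 enteric neuron markers 1 had a row (Ret, at most 0.47 FPKM), and of the 5 glia and 6 B and plasma cell markers none did. T and natural killer cell markers, 8 of 11 with a row, summed to 36.9 to 130.8 FPKM in WKY and 11.4 to 21.1 FPKM in SHR. WKY replicate 3 held the highest of these sums.

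The comparison of SHR with WKY asks which of these genes the hypertensive strain expresses at another level. Cck and Neurod1 fell in SHR, and no member rose. Cck was 6.64-fold lower by the ratio of mean FPKM and Neurod1 3.49-fold lower. The L cell hormones Gcg and Pyy and the granins Chga, Chgb and Scg5 all had lower means in SHR and did not pass the test. Thus 2 of 7 members were lower at an adjusted p under 0.05 in limma's test on log2(FPKM + 1), where 7.80% of all rows were, and 0 were higher, where 3.38% of all rows were. After quantile normalization 674 rows were lower and 682 higher, against 917 and 397, and the members gave the same 2 and 0. The median log2 fold change of the 7 was -0.77, against -0.07 over all 11762 rows, and all 7 were negative. Strains did not overlap, with SHR the lower, in 3 of 7 members (Cck, Neurod1 and Gcg), where 11.3% of all rows showed this. In bulk RNA, fewer cells of a type and less RNA per cell cannot be told apart.

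**Figure D1:**
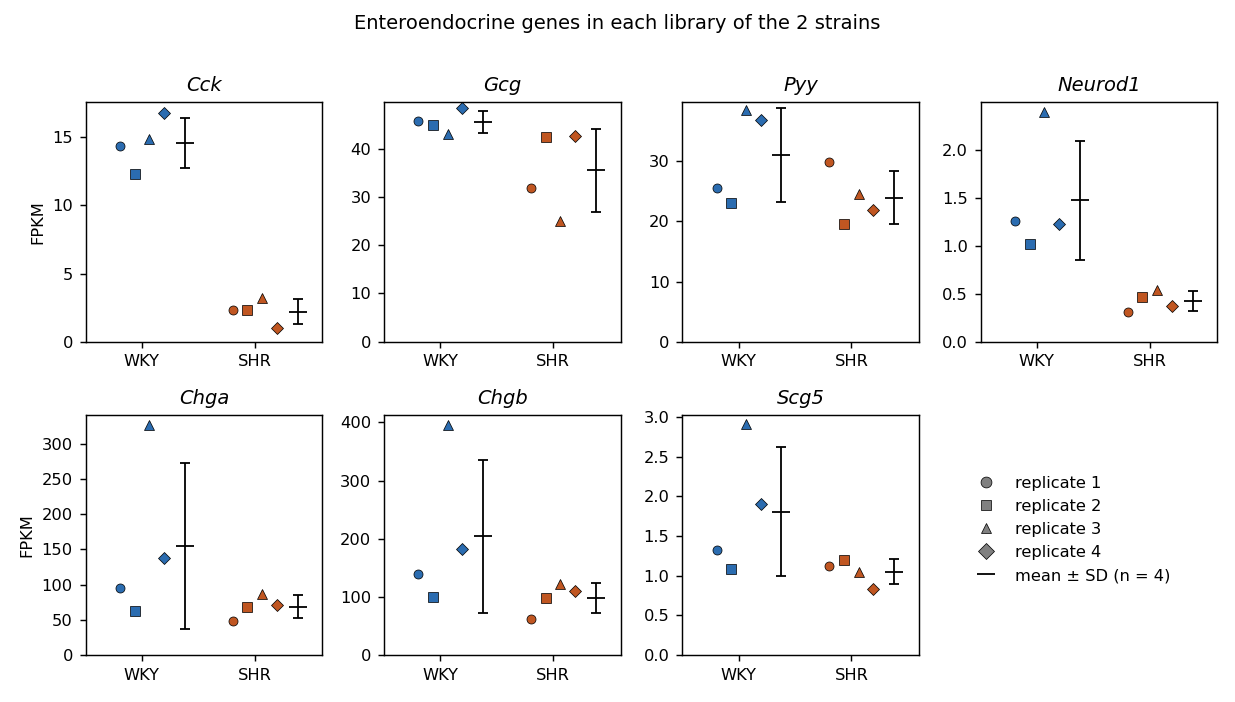
FPKM of the 7 members with a row in each of the 4 WKY (blue) and 4 SHR (orange) libraries, each panel with its own axis from 0. Symbols mark the replicate number, and the bar beside them is the mean ± SD. Cck, Neurod1 and, narrowly, Gcg separate the strains, while WKY replicate 3 stands high for Chga (326.1), Chgb (395.6), Scg5 (2.92) and Neurod1 (2.39).

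Cck (ENSRNOG00000019321) encodes cholecystokinin, which slows gastric emptying, releases bile and pancreatic enzymes and signals satiety. In WKY replicates 1 to 4 its level was 14.33, 12.32, 14.89 and 16.77 FPKM, and in SHR replicates 1 to 4 it was 2.3, 2.31, 3.19 and 0.98 FPKM. The lowest WKY library thus held more than 3 times the FPKM of the highest SHR library, and the WKY libraries lay close together. WKY averaged 14.6 ± 1.83 FPKM and SHR 2.20 ± 0.911 FPKM (± SD here and below, n = 4 per strain). The log2 fold change with its SE was -2.33 ± 0.20 (limma adjusted p = 1.29e-05). Leaving out any 1 library moved this between -2.48 and -2.12 and kept it past the threshold. With a pseudocount of 5 it was -1.45 and with 0.1 it was -2.78, both past the threshold. In the authors' deposited table Cck had a mean of 10.8 CPM in WKY and 1.68 CPM in SHR, with a log2 fold change of -2.66 and a q-value of 3.37e-17.

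Gcg (ENSRNOG00000005498) encodes proglucagon, which L cells cut into glucagon-like peptides. Its level was 45.76, 44.88, 43.12 and 48.47 FPKM in WKY and 31.84, 42.45, 25.11 and 42.68 in SHR. The strains do not overlap, but SHR replicates 2 and 4 lie just under the lowest WKY library. The means were 45.6 ± 2.23 and 35.5 ± 8.59 FPKM, with a log2 fold change of -0.38 ± 0.16 that did not pass (limma adjusted p = 0.138). Its 95% interval ran from -0.72 to -0.04.

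Pyy (ENSRNOG00000020877) encodes peptide YY, which slows gut transit and curbs appetite. Its level was 25.49, 23.14, 38.6 and 36.88 FPKM in WKY and 29.83, 19.62, 24.54 and 21.83 in SHR. The strains overlap, since SHR replicate 1 lies above WKY replicates 1 and 2. The log2 fold change was -0.34 ± 0.18 (limma adjusted p = 0.236), with a 95% interval from -0.73 to 0.05.

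Cck passed the test and the L cell hormones did not, so the distance of Cck from each of them was measured within libraries. The log2(FPKM + 1) of Cck minus that of Gcg was -1.61, -1.78, -1.47 and -1.48 in WKY and -3.32, -3.71, -2.64 and -4.46 in SHR. Every SHR library lay below every WKY library, and the means differed by -1.95 (exact permutation test over libraries, two-sided p = 0.0286, the smallest that 4 against 4 allows). Against Pyy the difference of Cck was -1.99, again with no overlap and the same exact p of 0.0286. With a pseudocount of 5 these differences shrank to -1.10 against Gcg and -1.15 against Pyy. These comparisons were added after the data were seen, are among 8 ratios computed, and carry no adjustment.

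Among the other gut peptides with a row none passed. Of 13 looked up, 5 had a row, 0 were lower and 0 higher at the limma threshold (2 of the 7 members were lower), with a median log2 fold change of -0.20. Only Sct, the secretin gene, had an unadjusted p under 0.05 (p = 0.0240 in limma, adjusted p = 0.118, and 0.0499 without SHR replicate 1), and the authors' deposited q-values called 1, Adm. Ghrl, the ghrelin gene, was at 24.8 ± 2.92 FPKM in WKY and 24.2 ± 8.34 in SHR. Sst, for the inhibitory hormone somatostatin of D cells, was at 6.14 ± 1.93 and 6.57 ± 1.19 FPKM. Sct was at 8.03 ± 0.812 and 6.21 ± 0.970 FPKM. Ghrelin and somatostatin transcripts had intervals of -0.53 to 0.35 and -0.30 to 0.53 on the log2 scale, which do not reach the interval of Cck (-2.76 to -1.89).

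Neurod1 (ENSRNOG00000005609) is a basic helix-loop-helix factor that acts in late enteroendocrine differentiation. Its level was 1.26, 1.02, 2.39 and 1.23 FPKM in WKY and 0.31, 0.47, 0.54 and 0.37 in SHR. All SHR libraries lay below all WKY libraries, and WKY replicate 3 stood well above the other WKY libraries. The means were 1.48 ± 0.619 and 0.423 ± 0.102 FPKM, and the log2 fold change of -0.77 ± 0.15 passed (limma adjusted p = 0.00642). That scale understates changes at such levels, and with a pseudocount of 0.1 the value was -1.54. The call held without any 1 library, with values of -0.86 to -0.61 (-0.61 without WKY replicate 3). In the authors' deposited table the log2 fold change was -1.78 with a q-value of 0.000116, on mean levels of 2.69 and 0.771 CPM. Neurod1 averaged under 1 FPKM over the 8 libraries and is therefore not tested where such genes are left out.

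Of 22 other factors of this lineage 6 had a row, 1 was lower and 0 higher, with a median of -0.17. The 1 that passed was Foxa2, a forkhead factor of gut endoderm that also acts in enteroendocrine differentiation, at 5.38 ± 0.474 FPKM in WKY and 3.05 ± 0.869 in SHR (limma adjusted p = 0.0165, and 0.0539 without SHR replicate 3). Its relative Foxa1 was at 19.9 ± 2.33 and 18.8 ± 3.54 FPKM. Lmx1a, a factor of enterochromaffin cells, was at 0.81, 0.87, 1.59 and 0.86 FPKM in WKY and 0.46, 0.56, 0.7 and 0.36 in SHR. Those strains do not overlap, but the test was not passed (limma adjusted p = 0.0620). Neurog3, which starts the lineage, had no row and is not analysed here.

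Upstream of the endocrine choice, genes of secretory commitment and Notch signalling were looked up as well. All 12 had a row, of which 3 fell and 0 rose, with a median of -0.18. Gfi1, a repressor that acts downstream of Atoh1 in secretory progenitors, went from 2.97 ± 0.265 to 1.54 ± 0.474 FPKM (limma adjusted p = 0.0122). The Notch ligand gene Dll4 went from 1.52 ± 0.186 to 0.718 ± 0.159 FPKM (limma adjusted p = 0.00664). Hes1, a Notch target that opposes secretory fate, went from 45.1 ± 7.45 to 32.7 ± 1.84 FPKM (limma adjusted p = 0.0376). The Hes1 call ended in 7 of 8 fits without a library (adjusted p up to 0.109, without WKY replicate 1) and held without WKY replicate 3 alone. It also ended after quantile normalization (0.0517) and median centring (0.0623). Atoh1, the factor of all secretory cells, averaged 30.3 ± 4.82 and 20.2 ± 6.37 FPKM, short of the threshold (limma adjusted p = 0.0621, and 0.0109 without SHR replicate 2). Goblet cells share this origin, and 8 of the 16 goblet markers with a row were lower in SHR and 0 higher, with a median of -0.68.

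**Figure D2:**
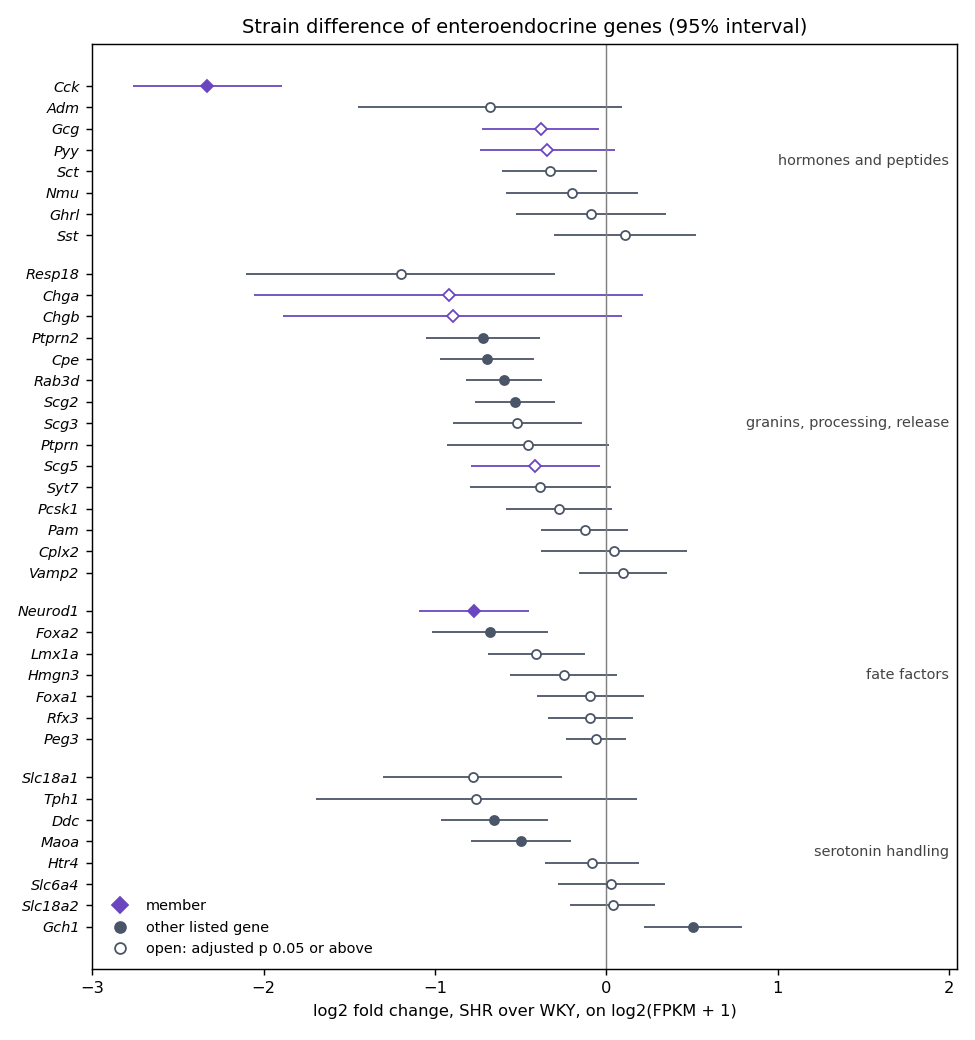
Log2 fold change of SHR over WKY on log2(FPKM + 1) with its 95% interval, for the 7 members (diamonds) and the other listed enteroendocrine genes with a row (circles), grouped by role. Filled symbols passed an adjusted p under 0.05. Cck at -2.33 lies apart from the other hormones, and the granule genes lie mostly below 0 with wide intervals for Chga, Chgb and Resp18.

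The granins were widely spread among the WKY libraries. Chga (ENSRNOG00000052549), for chromogranin A, was at 94.37, 62.94, 326.06 and 137.28 FPKM in WKY and 47.99, 68.56, 87.16 and 70.57 in SHR. WKY replicate 3 was 3.32 times the mean of the other WKY libraries, and WKY replicate 2 lay below 3 of the SHR libraries. The means were 155 ± 118 and 68.6 ± 16.1 FPKM, and the log2 fold change of -0.92 ± 0.48 did not pass (limma adjusted p = 0.263).

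Chgb (ENSRNOG00000021269), for chromogranin B, was at 138.56, 98.78, 395.55 and 181.92 FPKM in WKY and 61.64, 97.56, 122.2 and 109.87 in SHR. Its libraries fall in the same order as those of Chga within WKY. The log2 fold change was -0.90 ± 0.43 (limma adjusted p = 0.217). The authors' deposited table gives q-values of 0.0123 for Chga and 0.0116 for Chgb, so their test, which the sources used here do not name, called 4 of the 7 members lower, where it called 9.59% of all rows lower. Without WKY replicate 3 the log2 fold changes in limma were -0.47 for Chga and -0.51 for Chgb, again short of the threshold (adjusted p = 0.257 and 0.209).

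Scg5 (ENSRNOG00000007542), for the 7B2 protein that chaperones prohormone convertase, had levels of 1.33, 1.08, 2.92 and 1.9 FPKM in WKY and 1.12, 1.2, 1.05 and 0.83 in SHR. The strains overlap through WKY replicate 2. The log2 fold change was -0.41 ± 0.17 (limma adjusted p = 0.144).

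Of 21 other genes of granule cargo, hormone processing and release 12 had a row, of which 4 fell and 0 rose, with a median of -0.49. Scg2, another granin, was at 1.99, 1.62, 2.23 and 1.88 FPKM in WKY and 0.91, 0.98, 0.97 and 1.22 in SHR, with every SHR library below every WKY library (limma adjusted p = 0.00797). Cpe, the carboxypeptidase that trims prohormones, went from 4.60 ± 0.617 to 2.46 ± 0.319 FPKM (limma adjusted p = 0.00436). Ptprn2, a phosphatase-like protein of granule membranes, went from 13.3 ± 1.11 to 7.80 ± 1.96 FPKM (limma adjusted p = 0.0106), and the secretory GTPase gene Rab3d from 27.8 ± 1.41 to 18.1 ± 1.42 FPKM (limma adjusted p = 0.00328). These 4 passed in all 8 fits without a library. Rab3d is also made by other secretory cells. Scg3, a granin that anchors granule cargo to membranes, fell short of the threshold at a log2 fold change of -0.52 ± 0.17 (limma adjusted p = 0.0719, and 0.0460 without WKY replicate 2), and so did Resp18 at -1.20 ± 0.39 (0.0888).

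WKY replicate 3 stood highest for most granule genes, in many of them by little. It was the highest WKY library for 5 of 7 members and for 10 of the 12 other granule genes, where 23.5% of the 11055 rows with a mean of at least 1 FPKM had their highest WKY value there. It exceeded the mean of the other WKY libraries by more than 1.5-fold for 4 of the 7 members (Chga, Chgb, Scg5 and Neurod1). The same held for 3 of the 12 other granule genes (Scg3, Resp18 and Ptprn) and for 4.72% of those 11055 rows. Resp18, a granule protein gene, was at 21.03 FPKM there and at 5.83 to 13.47 FPKM in the other WKY libraries. Cck at 14.89 and Gcg at 43.12 FPKM were not raised in that library.

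Of the 8 enterochromaffin genes with a row, 3 were highest in WKY replicate 3 among the WKY libraries (Tph1, Slc18a1 and Htr4). Over the 11055 rows with a mean of at least 1 FPKM, 23.5% were. Htr4 was so by little, at 1.19 times the mean of the other WKY libraries, against 2.88 for Tph1 and 2.14 for Slc18a1. Another 2, Ddc and Maoa, were lowest in WKY replicate 3. Tph1, whose enzyme starts serotonin synthesis, was at 11.07, 8.53, 34.41 and 16.31 FPKM in WKY and 5.68, 9.87, 12.02 and 8.1 in SHR. WKY replicate 2 was the lowest of its strain, and the strains overlap (limma adjusted p = 0.265). Slc18a1, the transporter that loads amines into granules, was at 5.31, 4.42, 11.99 and 7.11 FPKM in WKY and 3.48, 4.17, 3.95 and 2.61 in SHR, with no overlap (limma adjusted p = 0.0583, and 0.0234 without WKY replicate 2). Of 9 genes of serotonin handling 8 had a row, 2 fell (Ddc and Maoa) and 1 rose (Gch1). Ddc, which completes serotonin synthesis, went from 10.6 ± 1.74 to 6.38 ± 1.08 FPKM (limma adjusted p = 0.0128). The authors' deposited q-values were under 0.05 for Tph1 (0.0303) and Slc18a1 (0.00613) as well, and likewise for Resp18, Scg3, Lmx1a and Atoh1. Maoa and Gch1, which colonocytes also express, had limma adjusted p of 0.0328 and 0.0277. The Maoa call ended without WKY replicate 1, 2 or 4 or SHR replicate 1 or 3 (adjusted p up to 0.101) and after quantile normalization (0.0693), and the Gch1 call without WKY replicate 1 or 2 or SHR replicate 2 or 3 (up to 0.0905).

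**Figure D3:**
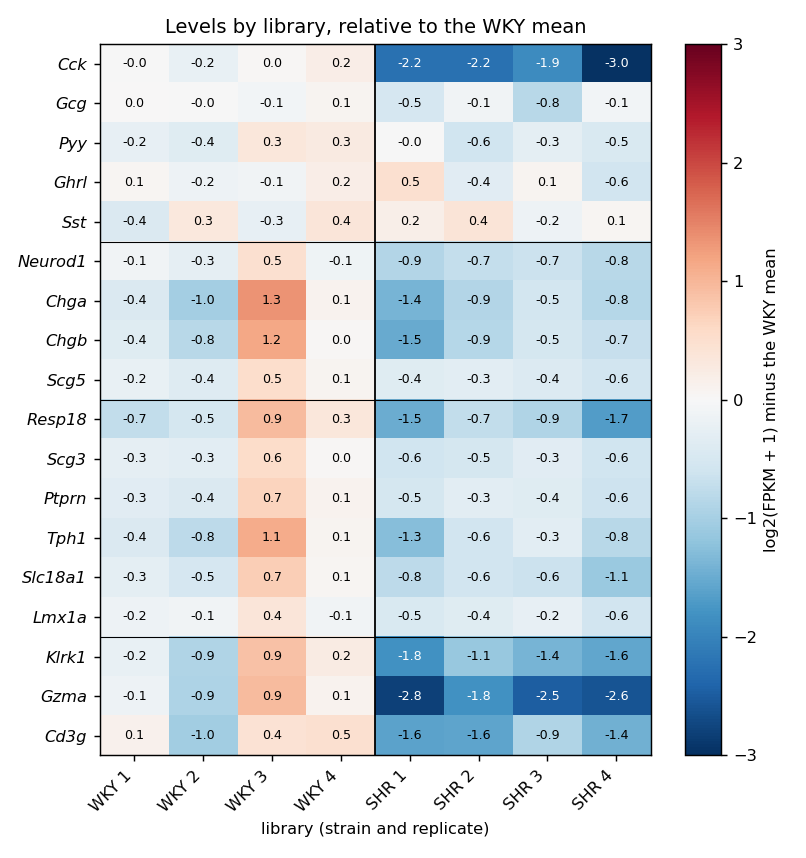
Log2(FPKM + 1) of each gene in each library minus the mean of the 4 WKY libraries (red above it, blue below it, values printed), with hormones, members of fate and granule roles, other endocrine and enterochromaffin genes, and lymphocyte genes in blocks. WKY replicate 3 is above the WKY mean by 1.3 for Chga and 1.1 for Tph1, while Cck is at 0.0 there and at -1.9 to -3.0 in the SHR libraries. The genes are a selection. In WKY replicate 3 the other endocrine and enterochromaffin genes drawn were at 1.88 (Lmx1a) to 2.92 (Ptprn) times the mean of the other WKY libraries. Listed genes not drawn include Ddc (0.778 times), Maoa (0.885), Ptprn2 (1.15) and Scg2 (1.22).

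Markers of other cells moved with the granins in the same library. Over the 11055 rows with a mean of at least 1 FPKM, 23.5% had their highest WKY value in WKY replicate 3. Of the 8 T and natural killer cell markers with a row, 7 were highest in WKY replicate 3 among the WKY libraries, and 7 were lower in SHR by limma and 0 higher, with a median log2 fold change of -1.21. Of 9 tuft cell markers with a row, 8 were highest in WKY replicate 3 among the WKY libraries, yet 0 differed between the strains at the limma threshold, with a median of -0.01. That tuft count depends on single libraries, since Gnat3 was higher in SHR without WKY replicate 3 (limma adjusted p = 0.0204) and Alox5ap lower without WKY replicate 1 (0.0373) or SHR replicate 3 (0.0489). Of 11 absorptive colonocyte markers 8 were highest in WKY replicate 3 among the WKY libraries. Of these 4 exceeded the mean of the others by more than 1.5-fold, as 4.72% of those 11055 rows did. Of 11 stem and dividing cell markers 9 were lowest in WKY replicate 3, and the share of all rows lowest there was not computed. Of the 11049 other genes with a mean of at least 1 FPKM, those whose standardized profile over the 8 libraries lay closest to the mean profile of the 6 members with that level were Klrk1, Cd244, Gimap5, Art2b and Zfp579. The first 4 are genes known from lymphocytes. Klrk1, a natural killer cell receptor, differed from that profile by a root mean square of 0.163 SD and was at 3.83, 2, 9.37 and 5.67 FPKM in WKY, against a mean of 1.05 ± 0.396 FPKM in SHR. Among the SHR libraries, replicate 3 was highest for Cck, Chga, Chgb and Neurod1, not for Pyy, Gcg or Scg5. Of the other granule genes only Scg3 was highest there. Across SHR libraries Chga spanned 1.82-fold, across WKY libraries 5.18-fold. SHR replicate 3 was also highest for all tuft markers but Pou2f3 and Sh2d6 and all absorptive markers but Car1 and Alpi. Among the T and natural killer cell markers all but Gzma, Gzmb and Prf1 were highest there. The part of any of these cells in the granin values was not tested. Cck was as different without WKY replicate 3 (log2 fold change -2.32) as with it.

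Relative to the granins, Cck was lower in SHR and Gcg, Pyy and Neurod1 gave no difference that passed. Each gene's log2(FPKM + 1) was set against the mean of Chga, Chgb and Scg5 in its library. For Cck this difference was -1.04, -0.83, -2.33 and -1.24 in WKY and -2.50, -2.90, -2.75 and -3.62 in SHR. The strains do not overlap, though WKY replicate 3 lies just above SHR replicate 1. The means differed by -1.59 ± 0.46 (limma adjusted p = 0.0426), so 1 of 4 hormones and factors was lower than the granins, where 0.187% of the 11759 other rows were, and 0 were higher, where 1.27% were. All rows share the same 3 reference values, so limma's spread here is not independent between genes and its p is too small. The exact permutation test over libraries gave p = 0.0286 for Cck. The limma call ended without any 1 of 6 libraries (all but WKY replicates 2 and 3, adjusted p of 0.137 to 0.433), with Chga alone as reference (0.319) and with a pseudocount of 5 (0.266).

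**Figure D4:**
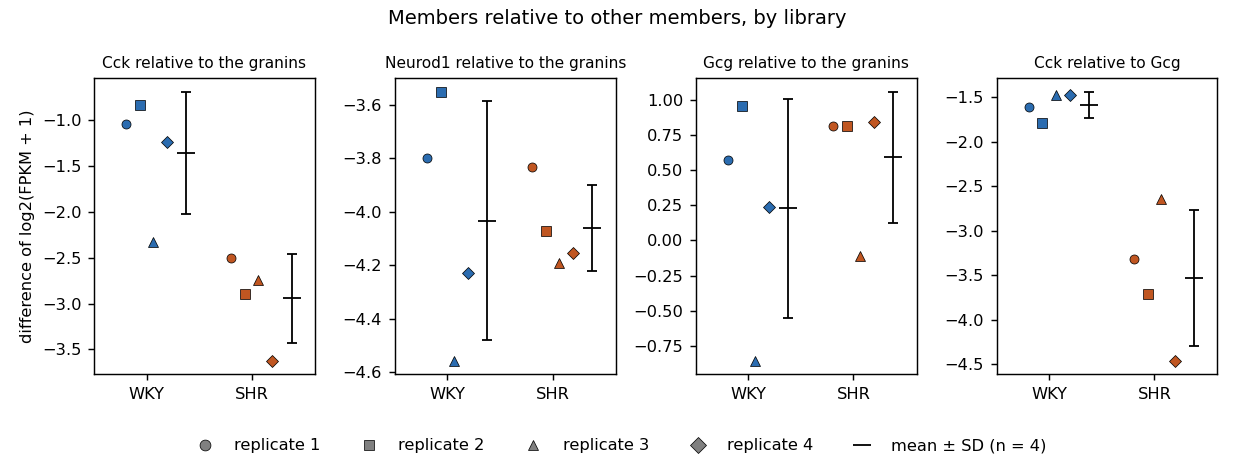
Difference of log2(FPKM + 1) between a member and the mean of Chga, Chgb and Scg5, or between Cck and Gcg, in each WKY (blue) and SHR (orange) library, with mean ± SD and a separate axis for each panel that does not start at 0. Both Cck panels separate the strains, while the Neurod1 and Gcg panels overlap.

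For Gcg and Pyy the difference from the granins was 0.36 ± 0.47 and 0.40 ± 0.47 higher in SHR, without passing (limma adjusted p = 0.501 and 0.459). Their 95% intervals, -0.56 to 1.28 and -0.52 to 1.32, take in changes in either direction. For Neurod1 the value depends on the pseudocount, at -0.03 with 1, -0.72 with 0.1 and 0.39 with 5, none of which passed, so no direction is given.

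By FPKM, which takes gene length into account, the order in WKY was Chgb, Chga, Gcg, Pyy, Cck, Scg5 and Neurod1, and it was the same in SHR. Each gene lay above the next in 4 of 4 libraries of either strain. The ranges over libraries overlapped between Chgb and Chga in both strains, between Scg5 and Neurod1 in WKY, and between Gcg and Pyy and between Cck and Scg5 in SHR. The step from Pyy to Cck widened from 2.13-fold in WKY to 10.9-fold in SHR.

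Receptors and peptidases that meet these hormones were mostly without a row, with 3 of 11 listed. Dpp4, the surface peptidase that inactivates glucagon-like peptide 1 and trims peptide YY, was at 6.33, 8.43, 11.15 and 8.83 FPKM in WKY and 3.46, 4.73, 5.23 and 4.9 in SHR. The strains do not overlap, and it fell by 0.78 ± 0.16 on the log2 scale (limma adjusted p = 0.00997). T cells also carry it as a surface antigen, 7 of 8 T and natural killer cell markers were lower in SHR too, and their part in this value was not tested. The peptidase genes Mme and Anpep were under 1 FPKM in both strains and did not pass. Of 23 genes of luminal sensing 7 had a row, and 0 passed the limma threshold in either direction, 2 had an unadjusted p under 0.05 in limma (Ffar2 and Lpar5), and the authors' deposited q-values called 0. Ffar2, a receptor for short-chain fatty acids on L cells, was at 2.51, 5.11, 6.66 and 3.92 FPKM in WKY and 2.85, 3.55, 2.01 and 1.12 in SHR, with overlap between the strains (limma adjusted p = 0.123, and 0.0465 without WKY replicate 1). The long-chain fatty acid receptor gene Ffar4 was at 44.3 ± 8.07 and 34.6 ± 7.60 FPKM.

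Genes next to the members were read as well, in the gene order of the black rat assembly Rrattus_CSIRO_v1, used only to find neighbours. Of 28 neighbours (the 2 nearest with a row on each side of each member), 2 were lower and 1 higher in SHR. Over all rows 7.80% were lower and 3.38% higher, and the counts of neighbours lie near these shares. The median log2 fold change of the neighbours was -0.08. None of the 4 neighbours of Cck passed. Trak1 and Sec22c, on either side, were at 27.2 ± 5.09 and 5.10 ± 1.04 FPKM in WKY and 29.4 ± 2.28 and 5.88 ± 1.51 in SHR (limma adjusted p = 0.577 and 0.582). Ube2e3, a ubiquitin-conjugating enzyme gene beside Neurod1, fell by 0.40 on the log2 scale (limma adjusted p = 0.0448). Beside Gcg, Dpp4 fell and Ifih1, a sensor of viral RNA, rose (limma adjusted p = 0.0498). Beside Pyy lies Ppy, which encodes pancreatic polypeptide of the same hormone family and was not among the genes looked up. It averaged 9.26 ± 3.23 FPKM in WKY and 5.14 ± 1.45 FPKM in SHR and did not pass (limma adjusted p = 0.0639).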

How the data were processed

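Poly(A)-selected RNA was sequenced as directional paired-end libraries, per the labels' protocols. The submitters' processing notes list the tools FastQC, Trimmomatic and STAR, with no versions. The sources used here do not say how the authors counted reads, with or without strand, nor which build, annotation and test they used. The deposited table gives a value per gene and library, taken as FPKM because its sums differ between libraries and it relates to the CPM columns by a factor per gene. It also holds the authors' mean CPM per strain, log2 fold change, p-value and q-value, per the file headers. The other deposited tables hold the same rows or a part of them and were not used.

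All 11762 rows were tested with limma 3.58.1 in R 4.3.3 on log2(FPKM + 1), with no filter, so that no member entered through the strain where it is high. The model had strain only, with empirical Bayes trend and robust settings, two-sided, and Benjamini-Hochberg adjustment over all rows at a threshold of 0.05. The same fit was made after subtracting the mean of Chga, Chgb and Scg5 in each library. The strain fit was run on simulated data with independent noise. For the fit with a reference only the fold change was checked in this way, not its p-values. The members, the 18 lists of related genes and cell markers and the tests were chosen with earlier results of these data known. No member or listed symbol had more than 1 row, and those without a row were not analysed. Named were all members, every called gene or up to 6 of smallest p in endocrine lists, up to 3 in cell lists, and the 5 genes of most alike profile. Not every such gene is discussed, and Ppy and the neighbours were named after their values were seen. Epcam, Ptprn, Gzma, Cd3g, Pou2f3, Sh2d6 and Car1 are also named or drawn outside this rule.

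Depth is unknown, so no counting interval is given. Alternatives were pseudocounts of 0.1 and 5, filters on low values, quantile normalization, median centring, no trend, the replicate number as a block, Chga alone as reference, the authors' q-values and leaving out each library. The exact permutation tests, the ratios of Cck and Neurod1 to Gcg and Pyy and the list counts by setting were added after seeing the data. Figures were drawn with matplotlib 3.10.9.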

Additional observations from a re-analysis of the deposited data

Results flagged for a closer look

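No member had a library set apart from the other 3 of its strain by Dixon's criterion at the 95% level, in 14 groups of 4. Among all 140 groups checked for the members and the listed genes of smallest p, 7 were flagged, and chance flags about 1 in 20. In WKY replicate 3 these were Lmx1a, at 1.59 FPKM, the peptidase gene Mme, at 0.9 FPKM, and the collagen gene Col3a1, at 1.89 FPKM. In SHR replicate 2 they were Alpi, at 0.02 FPKM where the other SHR libraries are listed at 0, and the perforin gene Prf1, at 0.35 FPKM. The remaining ones were Smoc2, low at 4.08 FPKM in WKY replicate 1, and Csf1r, high at 0.57 FPKM in SHR replicate 3.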

How the results depend on the processing

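The direction of all 7 members was the same under every alternative tried, and Cck and Neurod1 passed in all but 1, which did not test Neurod1. The count of members lower in SHR was 1 with a filter on a mean of 1 FPKM, which leaves Neurod1 out, and 4 by the authors' q-values, which added Chga and Chgb. The count of all genes higher in SHR was 682 after quantile normalization and 675 by the authors' q-values, against 397, and ranged from 227 to 588 without 1 library. The count lower ranged from 540 to 1293 without 1 library, against 917, and was 674 after quantile normalization. By more than 1.5 times, the fits without WKY replicates 1 and 4 and SHR replicates 2 and 3 lowered a count over all genes. The count of hormones and factors lower than the granins was 0 with a pseudocount of 5 or with Chga alone, and 0 to 1 without 1 library. The cause of these changes was not tested.

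The labels give replicate numbers without saying whether they pair the libraries. Deviations from the strain mean, compared across the 11055 genes with a mean of at least 1 FPKM, correlated between same-numbered libraries at -0.105, -0.039, 0.465 and -0.287 for numbers 1 to 4. Between libraries of different number the correlations ran from -0.347 to 0.281, so the 0.465 of number 3 was the highest of all pairs. With the number as a block 2 members were lower, and 1028 of all genes were lower and 418 higher, against 917 and 397 without it. The block brought Scg3 (limma adjusted p = 0.0293), Lmx1a (0.0321), Atoh1 (0.0198) and Slc18a1 (0.0435) past the threshold.

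List counts lower in SHR ranged over the alternatives from 4 to 7 for the granule genes, 1 to 4 for serotonin handling, 0 to 2 for fate factors, 2 to 4 for secretory commitment, 3 to 7 for stem and dividing cell markers, and 4 to 8 for T and natural killer cell markers. For tuft cell markers 0 to 1 were lower and 0 to 1 higher, and for absorptive colonocyte markers 1 to 2 and 1 to 4. Without WKY replicate 3 the first 4 of these were 4, 2, 1 and 3. FPKM without reads limits what can be said of genes near 1 FPKM, such as Neurod1 and Scg5.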

Other observations

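Markers of the remaining cell types looked up give the setting of these values. Of 11 stem and dividing cell markers with a row 6 were lower in SHR by limma and 0 higher, with a median log2 fold change of -0.58. Of 11 absorptive colonocyte markers 1 was lower and 1 higher, with a median of 0.27. The count higher was 2 without WKY replicate 3, 3 with the replicate number as a block and 4 by the authors' deposited q-values, which called 2 lower. Of 5 macrophage and mast cell markers and 3 fibroblast and muscle markers with a row none passed in either direction by limma, none had an unadjusted p under 0.05 and the authors' deposited q-values called none.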
